A study of Mus musculus with 3 samples.

Results

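*Il1rn*, *Il1r1*, *Il1r2*, *Il1rap*, *Il18r1* and *Il18rap* encode the antagonist and the receptor chains through which T cells sense, block or ignore interleukin-1 and interleukin-18. These 6 genes were taken by name out of the 25759 genes of the expression tables, whatever their level, and all of them were found. They were read in 3 RNA-seq libraries of sorted follicular regulatory T (TFR) cells, 1 library per genotype, so that no spread between mice, no test and no p-value can be given. All cells came from spleen and mLN of mice that received 125 µg of the hapten-protein conjugate NP-KLH in alum i.p. and a boost on day 7. They were sorted on day 10 as CD4+B220-CXCR5+GITRhi cells that carried the GFP of the *Prdm1gfp* (Blimp-1 reporter) allele. The library labelled N (NFATc1-deficient) has the genotype Nfatc1fl/fl.Prdm1gfp/+.FIC, in which Cre made from the *Foxp3* locus (FIC) recombines floxed *Nfatc1*. The library labelled αA (NFATc1/aA-overexpressing) has the genotype Nfatc1caaA.Prdm1gfp/+.FIC and carries constitutively active NFATc1/αA instead. In the library labelled PαA (additionally Blimp-1-deficient), of genotype Nfatc1caaA.Prdm1gfp/fl.FIC, the second *Prdm1* allele is floxed as well. All 3 groups thus share FIC and 1 *Prdm1gfp* allele, no library with unaltered *Nfatc1* was analysed here, and by the study's own reporter mice Cre had also been active in some T cells without Foxp3. The age and the number of mice behind each library are not given in the sources used here.

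Interleukin-1α and -1β bind IL-1R1, which then recruits the accessory chain IL-1RAcP (encoded by *Il1rap*) and signals through MyD88, IRAK kinases and NF-κB. This pathway is restrained at the cell surface by IL-1R2, a decoy that binds the cytokine but lacks the signalling domain, and outside the cell by IL-1Ra (*Il1rn*), which occupies IL-1R1 without engaging the accessory chain. Interleukin-18 uses the same scheme with the binding chain IL-18R1 (*Il18r1*) and the accessory chain IL-18RAP (*Il18rap*). TFR cells are known for the decoy and the antagonist, T follicular helper (TFH) cells rather for the signalling receptor.

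The libraries were not equal in depth or in content. Between 23269443 and 27637953 reads fell on exons. RPKM (exon reads scaled to exon length and library size) is used for levels. The 7017 genes that exceeded an RPKM of 5 in any library are called expressed. Their median was shifted by -0.14 on the log2 scale in αA against N, by -0.06 in PαA against αA and by -0.19 in PαA against N, and each ratio has to be read against these shifts. *Nfatc1* had an RPKM of 63.6 in N, 62.9 in αA and 32.4 in PαA. Its level went against the labels, and counts over a whole gene do not resolve the floxed part, so N, αA and PαA are names of labels. *Prdm1* had 25.6, 24.9 and 10.0. Of the 8 TFR and T cell markers (*Foxp3*, *Cd4*, *Cd3e*, *Cxcr5*, *Tnfrsf18*, *Il2ra*, *Ctla4*, *Ikzf2*) each exceeded an RPKM of 5 in some library. Their summed RPKM was 1548 in N, 1489 in αA and 1030 in PαA. By RPKM PαA had the lower value for 8 of 8 against αA and for 8 of 8 against N (8 and 6 with edgeR's TMM factors), and *Foxp3*, *Tnfrsf18* and *Ctla4* were over 2-fold lower in PαA than in N. The part of this in the values of PαA was not tested. RNA of other cells was present as well. The summed RPKM of 7 monocyte and macrophage markers was 262, 230 and 277 (always in the order N, αA, PαA), that of 6 neutrophil markers 34.8, 1.28 and 24.2, that of 6 B and plasma cell markers 60.2, 71.2 and 109, and that of 5 dendritic cell markers 2.23, 1.56 and 1.82. That of 4 NK cell markers was 7.10, 5.50 and 9.18, that of 2 CD8 markers 9.27, 14.1 and 8.14, and that of 4 basophil and mast cell markers 0.198, 0.0261 and 0.0558. In bulk samples such as these, fewer cells of a type and less RNA per cell cannot be told apart.

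Of the 6 genes, 4 lie together on chromosome 1. From the start of *Il1r2* to the end of *Il18rap* there are 478 kb in GRCm38, and the order on the forward strand is *Il1r2* (ENSMUSG00000026073, 40074079 to 40125231), *Il1r1* (ENSMUSG00000026072, 40225080 to 40317257), *Il1rl2*, *Il1rl1*, *Il18r1* (ENSMUSG00000026070, 40465552 to 40500854) and *Il18rap* (ENSMUSG00000026068, 40515362 to 40551705). Only 136 bases separate *Il1rl1* from *Il18r1*. *Il1rap* (ENSMUSG00000022514) is found on chromosome 16 between 26581704 and 26730117 and *Il1rn* (ENSMUSG00000026981) on chromosome 2 between 24336853 and 24351494. These spans are the same in GENCODE M21 for all 6 genes. The longest coding transcript encodes 576 residues for *Il1r1* and 410 for the decoy *Il1r2*, 685 for *Il1rap*, 537 for *Il18r1*, 614 for *Il18rap* and 178 for the antagonist *Il1rn*.

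For genes that differed between the libraries, the sequence upstream of the start is shown, since NFATc1 and Blimp-1 are the factors altered in these mice. All are from RefSeq (GRCm38.p6, forward strand), lie within 250 bases before an annotated transcript start and leave out annotated exons. Capitals mark the NFAT core GGAAA and the short Blimp-1 core GAAAG on either strand, which overlap where they are read as CTTTCC. The first pair belongs to *Il1rn* and lies before its upstream start (chr2:24336610-24336852) and before the first of its downstream starts (chr2:24345041-24345287). The stretch of *Il18r1* is the whole interval between *Il1rl1* and *Il18r1* (chr1:40465416-40465551). Those of *Il18rap* (chr1:40515112-40515361) and of the outermost start of *Il1r1* (chr1:40224830-40225079) follow. The last is the stretch outside annotated exons (chr1:40085852-40085984) before an inner start of *Il1r2*, and it holds neither core.
Il1rn upstream start: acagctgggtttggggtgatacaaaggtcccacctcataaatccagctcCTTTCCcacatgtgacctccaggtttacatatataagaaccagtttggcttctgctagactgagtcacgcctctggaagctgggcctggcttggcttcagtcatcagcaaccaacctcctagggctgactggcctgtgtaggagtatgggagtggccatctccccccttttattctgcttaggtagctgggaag
Il1rn downstream start: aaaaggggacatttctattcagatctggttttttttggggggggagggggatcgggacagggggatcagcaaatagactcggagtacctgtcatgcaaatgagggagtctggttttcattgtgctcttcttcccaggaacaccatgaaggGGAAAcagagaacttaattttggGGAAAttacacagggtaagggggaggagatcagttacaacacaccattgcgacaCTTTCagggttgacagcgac
Il18r1: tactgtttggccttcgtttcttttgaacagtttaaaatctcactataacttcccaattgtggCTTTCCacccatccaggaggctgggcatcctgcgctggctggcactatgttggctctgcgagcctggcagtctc
Il18rap: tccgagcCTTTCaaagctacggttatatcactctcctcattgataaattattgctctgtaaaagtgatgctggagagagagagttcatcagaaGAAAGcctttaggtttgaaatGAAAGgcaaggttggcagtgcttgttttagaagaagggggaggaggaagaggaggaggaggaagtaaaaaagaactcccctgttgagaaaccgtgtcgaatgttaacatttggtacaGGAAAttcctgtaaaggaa
Il1r1: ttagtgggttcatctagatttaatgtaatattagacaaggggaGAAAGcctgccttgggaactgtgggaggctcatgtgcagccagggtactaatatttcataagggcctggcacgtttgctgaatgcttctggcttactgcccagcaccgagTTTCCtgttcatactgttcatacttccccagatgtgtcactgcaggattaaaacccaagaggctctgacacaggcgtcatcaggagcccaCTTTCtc
Il1r2: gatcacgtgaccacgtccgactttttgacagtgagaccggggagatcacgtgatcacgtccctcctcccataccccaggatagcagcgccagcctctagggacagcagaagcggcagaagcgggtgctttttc

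Among 32817 windows of 250 bases before annotated starts, 55.6% held GGAAA, 51.5% held GAAAG and 7.30% the longer Blimp-1 core AGNGAAAG. Of the 11 windows of the 6 genes, some of which overlap each other, 8 held GGAAA, 8 held GAAAG and 0 held AGNGAAAG. The 3 windows with neither short core were those of *Il1r2*, *Il1rap* and the inner start of *Il1r1*. GGAAA occurred once in the window of *Il18rap* and GAAAG 3 times. *Il1rn* had 2 overlapping windows at downstream starts, the printed one with GGAAA 2 times and the other with GGAAA 4 times. Each of them had GAAAG once. A match describes letters that many promoters share, and no binding was measured here.

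Across the libraries the 6 genes followed different courses, as the plot of levels by library shows. By RPKM the decoy receptor *Il1r2* was highest in N and lowest in PαA, and the signalling receptor *Il1r1* had the opposite order. *Il18r1* and *Il18rap* were lowest in αA and highest in PαA. *Il1rn* alone was highest in αA. The filter of the study asks for an expression value over 5 in any group and for more than a 2-fold difference. The study does not name the unit of that value. In the deposited data, the quantity called expression value equals the exon reads. By exon reads all 6 genes exceed 5 in each library, so the level required depends on the unit. RPKM was used for it here, and by RPKM 4 of the 6 genes had the level to be called.

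**Figure D1:**
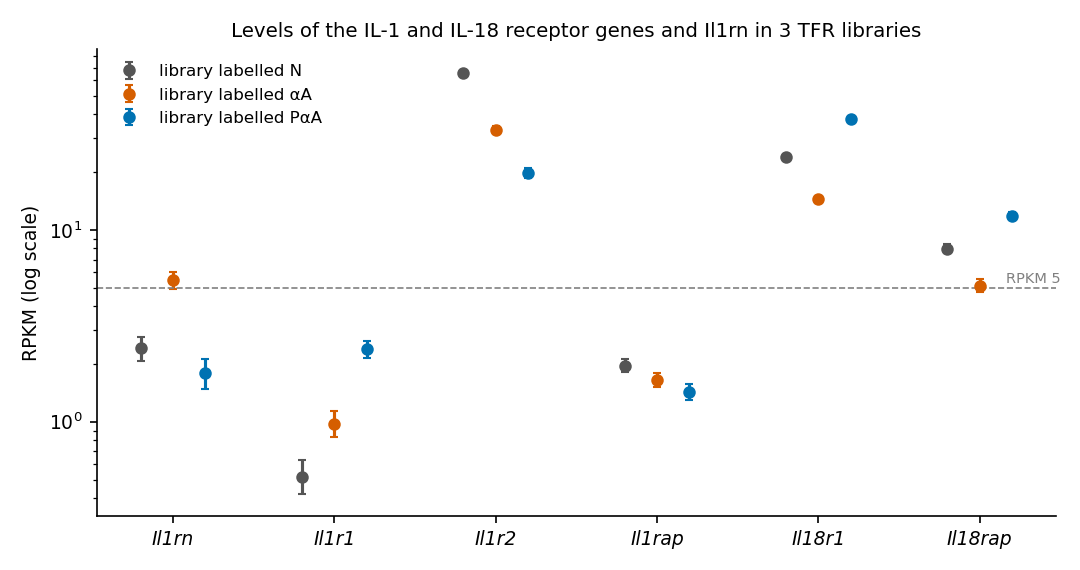
RPKM (log scale) of the 6 genes in the libraries labelled N (grey), αA (orange) and PαA (blue), with 95% Poisson intervals from the exon reads, which cover counting error only. *Il1r2* descends from 65.5 to 19.7 while *Il1r1* ascends from 0.517 to 2.38, and the *Il18r1* and *Il18rap* points lie lowest in αA.

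Of the 6 genes, 1 passed the filter in αA against N (*Il1rn*, higher), whereas 4.25% of the 7017 expressed genes did, 1.44% higher and 2.81% lower. In PαA against αA 3 of 6 passed (*Il18r1* and *Il18rap* higher, *Il1rn* lower), compared with 4.63% of expressed genes, 2.18% higher and 2.45% lower. In PαA against N 1 of 6 passed (*Il1r2*, lower), compared with 10.3%, of which 2.57% higher and 7.77% lower. The genes were chosen with earlier results of these data known, *Il1rn* among them by the study, and the comparisons share libraries, so these counts describe the 6 genes and test nothing. Among expressed genes, 33.9%, 47.1% and 24.8% of those that passed were higher in the first-named library, and with edgeR's TMM factors 54.5%, 56.6% and 50.7%. The calls among the 6 genes were the same by either scaling.

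*Il1r2*, the decoy, was the most abundant of the 6 genes in N and αA. In N it took rank 915 among 14025 genes with reads. Its exon reads numbered 3715 in N, 1730 in αA and 959 in PαA, an RPKM of 65.5, 33.3 and 19.7. Every step was downward and wider than the counting intervals. The log2 ratio of αA to N was -0.98 (counting interval -1.06 to -0.89), which is 1.97-fold lower and just short of the filter. PαA against αA gave -0.75 (-0.87 to -0.64), and PαA against N gave -1.73 (-1.84 to -1.63), a 3.32-fold lower level that passed. All of its reads were unique to the gene, and between 35.7% and 37.5% of them crossed an exon-exon junction. Junction reads alone gave log2 ratios of -0.91, -0.79 and -1.70. Neutrophils are known to carry this decoy as well. The summed RPKM of the 6 neutrophil markers was 34.8, 1.28 and 24.2, and the single markers followed different courses. In N, αA and PαA, *S100a8* had 185, 11 and 147 exon reads, *S100a9* 235, 0 and 153 and *Csf3r* 41, 21 and 46. *Retnlg* had 109, 0 and 5, *Mmp8* 18, 0 and 0 and *Cxcr2* 11, 19 and 0. The part of such cells in the level of *Il1r2* was not tested.

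*Il1r1*, the chain that signals, was the scarcest of the 6 genes in N and in αA, and its level went the other way. It had 94, 163 and 371 exon reads in N, αA and PαA, an RPKM of 0.517, 0.979 and 2.38. The intervals of the 3 levels did not overlap. The ratio was 1.89-fold for αA over N (log2 0.92, 0.55 to 1.30), 2.43-fold for PαA over αA (1.28, 1.01 to 1.56) and 4.61-fold for PαA over N (2.20, 1.87 to 2.55). None of these passed the filter as set here by RPKM, since *Il1r1* stayed below an RPKM of 5 in each library. By exon reads *Il1r1* had the level in each library. With 20 exon reads in the higher library as the only requirement on level, *Il1r1* was called in PαA against αA and against N, where 14.9% and 22.2% of genes were.

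The step of *Il1r1* from N to αA rested on reads that seldom crossed a junction. Only 7 of its 163 exon reads in αA did (4.29%, exact 95% interval 1.74% to 8.65%), compared with 12 of 94 in N (12.8%, 6.77% to 21.2%) and 41 of 371 in PαA (11.1%, 8.05% to 14.7%). By junction reads the log2 ratio of αA to N turned to -0.65 (-2.24 to 0.81), while PαA stayed above αA by 2.65 (1.48 to 4.05) and above N by 2.00 (1.04 to 3.06). Intron reads made up 8.74%, 22.7% and 23.8% of all reads on the gene in N, αA and PαA, whereas over all genes they made up 3.62%, 5.30% and 3.91%. The higher level in PαA was thus seen in junction reads as well, whereas N and αA changed their order with the kind of read.

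Because both receptors were measured in the same libraries, their ratio does not depend on the scaling between libraries. Per base of exon, there were 127 reads of the decoy *Il1r2* for each read of *Il1r1* in N (interval 103 to 157), 34.0 in αA (29.0 to 40.2) and 8.28 in PαA (7.34 to 9.36). The 3 intervals did not overlap. By junction reads, which are not divided by length here, the ratio was 111 in N (63.1 to 215), 92.6 in αA (44.7 to 231) and 8.56 in PαA (6.18 to 12.1), so that N and αA overlapped and PαA alone stood apart. The accessory chain *Il1rap* was the steadiest of the genes. It had 652, 505 and 407 exon reads in N, αA and PαA, an RPKM of 1.96, 1.65 and 1.43, with log2 ratios of -0.24 (αA to N), -0.21 (PαA to αA) and -0.46 (PαA to N), against shifts of -0.14, -0.06 and -0.19 for the median expressed gene. Per base, *Il1r1* amounted to 0.264 of *Il1rap* in N, 0.591 in αA and 1.67 in PαA, so that *Il1r1* exceeded its accessory chain per base in PαA only. By junction reads, not divided by length, this ratio was 0.154, 0.140 and 0.621, with overlapping intervals in N and αA. In PαA its interval was 0.410 to 0.931. A value of 1 is not parity here, since the annotated exons number 13 for *Il1r1* and 23 for *Il1rap*. Junction reads therefore cannot decide whether the excess of *Il1r1* per base holds.

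**Figure D2:**
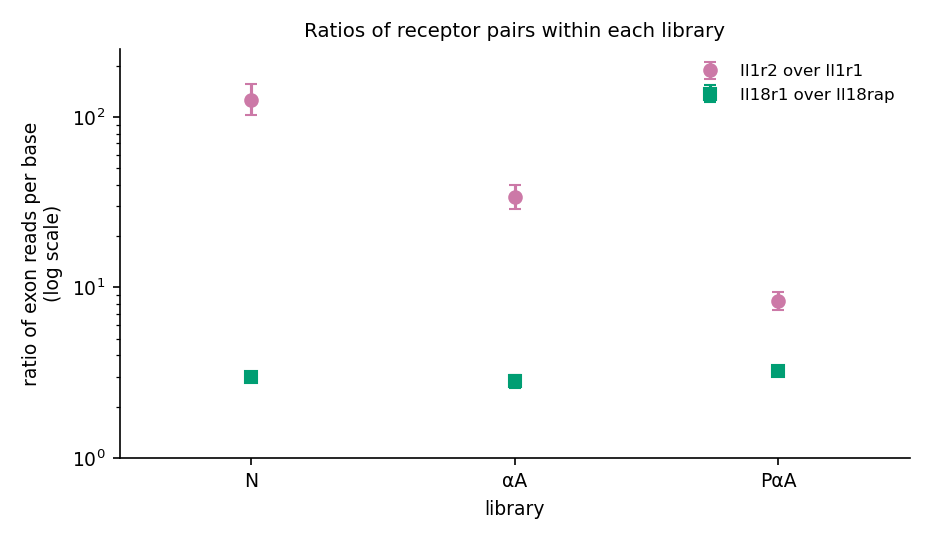
Ratio of exon reads per base (log scale) of *Il1r2* over *Il1r1* (circles) and of *Il18r1* over *Il18rap* (squares) within each library, with exact 95% counting intervals. The first ratio descends from 127 to 8.28, the second stays between 2.82 and 3.22. By junction reads, not plotted, the intervals of the first ratio overlapped in N (111) and αA (92.6).

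*Il18r1* and *Il18rap*, the chains that together form the functional IL-18 receptor, were lowest in αA and highest in PαA. *Il18r1* was covered by 3422 (N), 1891 (αA) and 4656 (PαA) exon reads, an RPKM of 23.9, 14.4 and 38.0. *Il18rap* had 1161, 681 and 1468 exon reads, an RPKM of 7.99, 5.11 and 11.8. Both genes passed the filter between PαA and αA, at 2.63-fold (log2 1.40, 1.32 to 1.47) and 2.31-fold (1.21, 1.07 to 1.34), respectively. Between αA and N the log2 ratios of -0.73 (-0.81 to -0.65) and -0.64 (-0.78 to -0.51) fell short of it. In PαA both also lay above N, by 0.67 (0.60 to 0.73) and 0.56 (0.45 to 0.67).

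The proportion of the chains hardly moved. *Il18r1* had 2.99 reads per base for each of *Il18rap* in N (2.80 to 3.20), 2.82 in αA (2.58 to 3.08) and 3.22 in PαA (3.04 to 3.42), and all 3 intervals overlapped. Junction reads put both genes further down in αA than all exon reads did. Between αA and N they gave -1.24 (-1.46 to -1.01) for *Il18r1* and -1.20 (-1.61 to -0.80) for *Il18rap*, each past 2-fold, and between PαA and αA 1.82 and 1.75. A gap of at least 0.5 between the ratio by junction reads and by exon reads, as both genes had in αA against N, was found in 5.06% of 5805 expressed genes. NK cells are known to express both chains. The summed RPKM of the NK markers was 7.10, 5.50 and 9.18 in N, αA and PαA, and the single markers followed different courses. *Eomes* had an RPKM of 3.32, 0.910 and 3.02, lowest in αA, and *Klrb1c* 2.92, 4.23 and 5.90. *Ncr1* had 12, 15 and 10 exon reads, highest in αA, and *Klra8* 21, 0 and 0. The part of such cells in the result was not tested.

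*Il1rl1*, which encodes the IL-33 receptor ST2 and lies directly before *Il18r1*, had an RPKM of 15.9, 3.20 and 8.43. It passed the filter as lower in αA than in N (log2 -2.31) and as higher in PαA than in αA. It shared the step from αA to PαA with *Il18r1* (log2 1.40 for either gene), but stayed below N in PαA while *Il18r1* lay above. Per base, *Il18r1* amounted to 1.51 of *Il1rl1* in N and to 4.51 and 4.50 in αA and PαA. By junction reads, not divided by length, this ratio was 1.59 in N, 6.1 in αA and 6.7 in PαA. *Il1rl1* had 367, 37 and 111 junction reads. Its log2 ratio by junction reads differed from that by exon reads by -0.87 (αA to N), 0.28 (PαA to αA) and -0.59 (PαA to N). *Il1rl2*, encoding the receptor for IL-36, had 131, 60 and 43 reads and was lower in αA and PαA than in N. By exon reads, *Il1r1* and *Il1rl1*, which flank it, were higher and lower than N, respectively, in both. By junction reads *Il1r1* was not higher in αA than in N (log2 -0.65, -2.24 to 0.81). The 6 receptor genes of the cluster did therefore not move as one. In PαA against αA, *Il1r1*, *Il1rl1*, *Il18r1* and *Il18rap* were higher and *Il1r2* and *Il1rl2* lower, the interval of *Il1rl2* (-0.98 to 0.21) including 0.

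**Figure D3:**
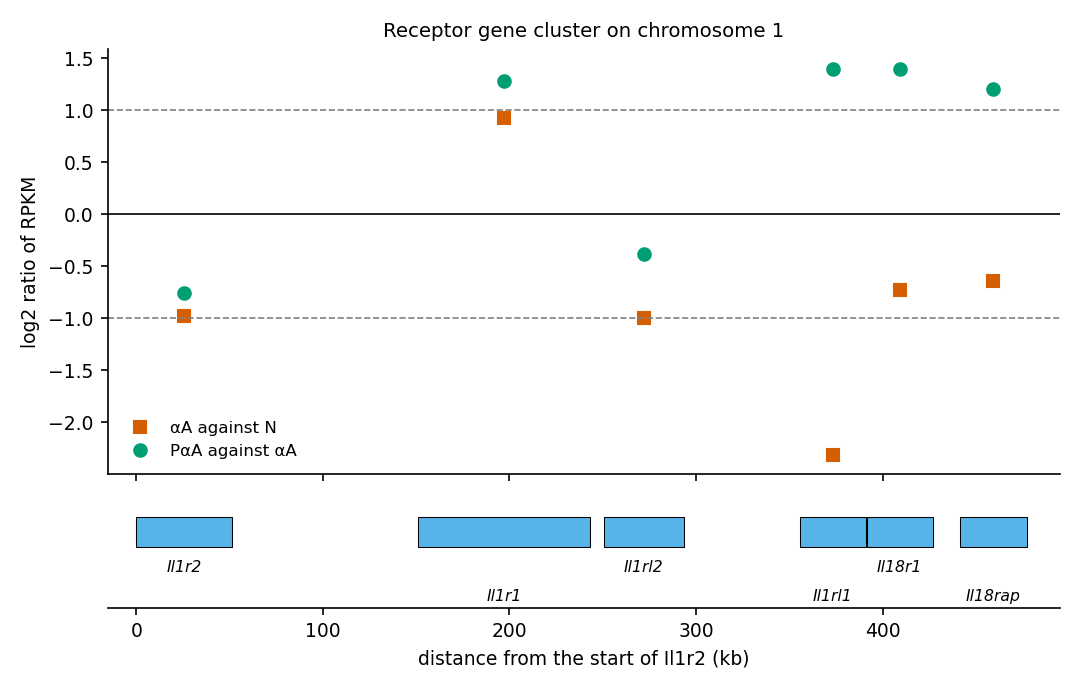
Log2 ratio of RPKM for the 6 receptor genes of the chromosome 1 cluster, αA against N (squares) and PαA against αA (circles), at the middle of each gene, with the genes drawn to scale below as distance in kb from the start of *Il1r2*. Dashed lines mark 2-fold. *Il1rl1*, *Il18r1* and *Il18rap* lie side by side between 1.21 and 1.40 in PαA against αA.

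*Il1rn*, encoding the secreted and intracellular forms of the IL-1 receptor antagonist, was covered by 194 exon reads (N), 402 (αA) and 123 (PαA), an RPKM of 2.41, 5.45 and 1.78. αA stood above both others and N above PαA. It was 2.26-fold higher in αA than in N (log2 1.18, 0.93 to 1.43) and 3.06-fold lower in PαA than in αA (-1.61, -1.92 to -1.32), and passed the filter in both comparisons. The first call was lost with a pseudocount of 1 (log2 0.92) and the second with junction reads (-0.72). The lower bound of its RPKM in αA, 4.93, lies under the level of 5 that the filter asks for. PαA against N gave -0.43 (-0.77 to -0.10).

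Few reads of *Il1rn* crossed a junction, 11, 30 and 17 in N, αA and PαA. By these the ratio of αA to N was 1.57 (0.54 to 2.72) and that of PαA to αA -0.72 (-1.67 to 0.18), and PαA turned out above N (0.85, -0.33 to 2.09), the latter intervals both including 0. In PαA, 29 of 152 reads on the gene fell in introns (19.1%, 13.2% to 26.2%), as opposed to 1 of 195 in N and 0 of 402 in αA, which allows up to 0.913%. The counts do not part its upstream from its downstream start, and the files list 2 detected transcripts in each library. Macrophages are known to make IL-1Ra. Of the 7 monocyte and macrophage markers, *Csf1r* (RPKM values 6.25, 10.6 and 6.62), *Mrc1* (1.11, 2.45 and 1.33) and *Adgre1* (2.30, 5.32 and 4.93) were highest in αA as *Il1rn* was, *C1qa* (35.8, 75.8 and 78.4) and *Fcgr1* (35, 59 and 62 exon reads) were above N in both αA and PαA, and *Lyz2* (214, 134 and 184) and *Cd14* (2.33, 1.31 and 0.799) were highest in N. None of the 7 was at 0. Their part in the level of *Il1rn* was not tested. Relative to *Il1r1*, the receptor it blocks, *Il1rn* had 4.66 reads per base in N, 5.57 in αA and 0.749 in PαA. By junction reads the ratio was 0.917, 4.29 and 0.415, and the intervals of N (0.366 to 2.27) and PαA (0.221 to 0.746) overlapped.

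**Figure D4:**
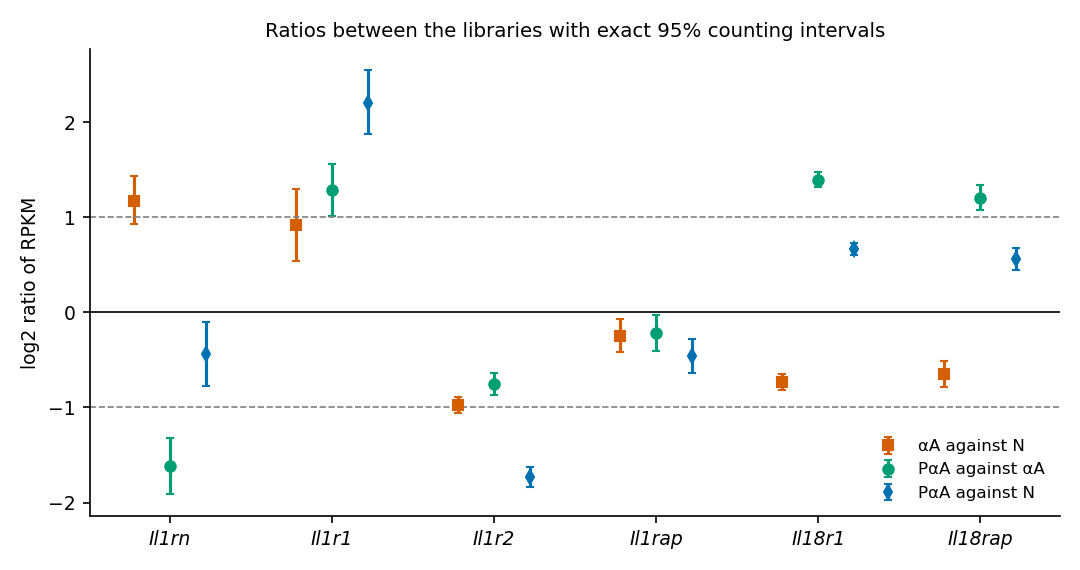
Log2 ratio of RPKM for each of the 6 genes in αA against N (squares), PαA against αA (circles) and PαA against N (diamonds), with exact 95% counting intervals. Dashed lines mark 2-fold. *Il1rn* reverses between the first and the second ratio, as do *Il18r1* and *Il18rap* the other way, whereas both ratios of *Il1r2* are negative and both of *Il1r1* positive.

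Genes with a course like that of each member were sought by the distance in the log2 ratios of αA to N and of PαA to αA, among up to 5984 expressed genes with mainly unique reads. This likeness rests on 3 libraries only and leaves out counting error. For *Il1rn* the counting intervals of these ratios were 0.93 to 1.43 and -1.92 to -1.32, and for *Il1r1* 0.55 to 1.30 and 1.01 to 1.56. They reach further than 0.2 from the ratios, so the order of the nearest genes is not resolved for these members. Closest to *Il1rn* were *Aldh1b1* (distance 0.105), *Igsf23* (0.113) and *Il6st* (0.140), and 4 genes lay within 0.2. Within the same distance there were 2 genes for *Il1r1*, 5 for *Il18r1*, 9 for *Il18rap* and 15 for *Il1r2*. Closest to *Il1r2* were *Upf1* (0.0441), *Arhgap18* (0.0781) and *Sec63* (0.0891), and closest to *Il1r1* were *Cd300c2* (0.130), *Aqp3* (0.164) and *S1pr1* (0.313). *Il18r1* was nearest to *Cdpf1* (0.0866), *Sytl3* (0.0900) and *Cdkn2a* (0.119), with *Il18rap* in rank 6 of 5983. *Il18rap* was nearest to *Sap30* (0.0336), *Car5b* (0.0525) and *Camk1* (0.0665), with *Il18r1* in rank 12. *Il1rap* had 950 genes within 0.2, led by *Cpt2*, *Mzt2* and *Ssrp1*. Its course was thus more common than those of the other members.

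The ligands were scarce in these libraries. Of 10 genes for ligands and soluble antagonists, *Il18* and *Il18bp* alone had a mean RPKM above 1. *Il18* had 144, 207 and 315 exon reads, an RPKM of 4.70, 7.37 and 12. It stood in the order N, αA, PαA with intervals of the ratios that excluded 0, and passed the filter between PαA and N (log2 1.35, higher in PαA). *Il18bp*, the soluble trap of interleukin-18, had an RPKM of 2.39, 2.10 and 4.45 and thus was highest in PαA, as *Il18r1* was. The part of cells other than TFR cells in the levels of the ligands was not tested. *Il1a* had 69, 26 and 31 reads and *Il1b* 31, 9 and 0, a count of 0 that allows up to 3. The genes of interleukin-36 and its antagonist and *Il1f10* had 0 reads in each library, except for 7 reads of *Il1f9* in N. Of the 5 other receptor family members, *Sigirr*, which encodes a restraining receptor, had an RPKM of 38.9, 52.1 and 46.3 and did not reach 2-fold, and *Il1rapl1* and *Il1rapl2* had no reads.

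Downstream of the receptors, the genes of the signalling chain were read in all libraries. Of 20 signalling genes, 16 had the level for it. In αA against N and in PαA against αA 0 of 20 passed in either direction, whereas 4.25% and 4.63% of expressed genes did. In PαA against N 1 passed, compared with 10.3% of expressed genes. It was *Irak4*, the kinase that MyD88 recruits first, with an RPKM of 9.42, 7.00 and 4.36. Counts this small do not set a list of 16 callable genes apart from these shares. *Nfkb1* (RPKM of 88.0, 57.3 and 51.8) and *Peli1* (62.7, 60.1 and 38.1) reached the highest RPKM of the list in any library. With TMM factors, 12, 12 and 15 of the 20 genes were lower, and by RPKM 18, 14 and 18. The median log2 ratio of the 20 genes was -0.19, -0.14 and -0.51 in the 3 comparisons, and the corresponding median of all expressed genes was -0.14, -0.06 and -0.19. *Irak3*, which restrains the pathway, was not callable at an RPKM of 2.08, 2.39 and 0.732. With 213 (αA) and 61 (PαA) exon reads its log2 ratio was -1.71 (-2.14 to -1.29).

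Of 12 NF-κB response genes, 12 had a lower RPKM in αA than in N, but only 9 with TMM factors, which put the median of all expressed genes at 0.02. In PαA against αA 11 of 12 were lower by either scaling, *Nfkbiz* being the exception, and in PαA against N 12 of 12. Their median log2 ratios were -0.32, -0.32 and -0.75 by RPKM and -0.16, -0.26 and -0.52 with TMM factors. Of the 11 with the level for the filter, 0, 0 and 1 passed, compared with 4.25%, 4.63% and 10.3% of expressed genes. The 1 that passed was *Bcl3*, a nuclear IκB protein, with an RPKM of 39.7, 31.7 and 18.0. *Nfkbia*, encoding the inhibitor IκBα, was the most abundant in each library, at 233, 219 and 175, and *Icam1* came next, with 60.5, 42.6 and 34.0. In PαA 11 of the 12 response genes were lowest. By RPKM the 8 TFR and T cell markers had a median log2 ratio of -0.70 in PαA against N. A link of the response genes to *Il1r1* was not tested.

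**Figure D5:**
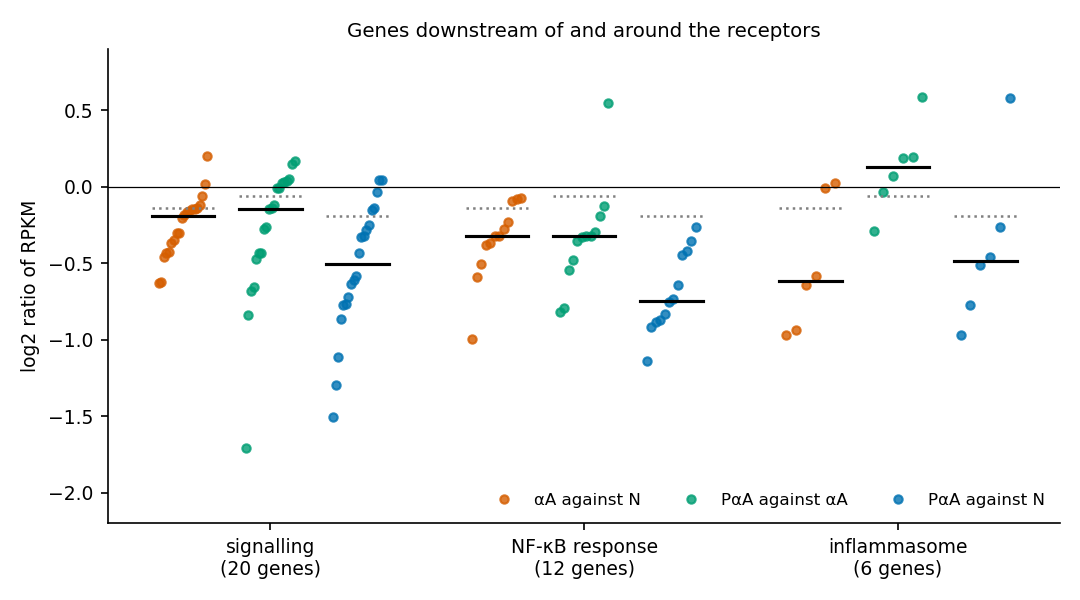
Log2 ratio of RPKM of single genes (points) in αA against N (orange), PαA against αA (green) and PαA against N (blue), for genes with a mean RPKM above 1 of the signalling, NF-κB response and inflammasome lists. Black bars are list medians and dotted grey lines the median of all 7017 expressed genes, and the NF-κB response bars lie below the dotted line in each comparison.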

How the data were processed

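RNA-seq was analysed from 3 libraries of sorted TFR cells, 1 per genotype, grouped by the labels. Single reads of poly(A)-selected libraries were trimmed by the authors, mapped to GRCm38 and counted per gene with CLC Genomics Workbench at default settings. The annotation release is not given in the sources used here. The deposited counts are whole-number exon, junction, intron and gene reads, total and unique, and the deposited RPKM and TPM are normalised by the authors to exon length and library size. Of 25759 genes, 3715 with an exon length of 0 were not used.

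Ratios of RPKM were formed for αA against N, PαA against αA and PαA against N, without a test. Intervals are exact Clopper-Pearson intervals at a 95% level (Poisson intervals for single levels) from exon reads, with the library totals implied by the RPKM (29726219, 27239921 and 25465829 reads in N, αA and PαA). They cover counting error only, since PCR copies were not marked. The filter was an RPKM above 5 in at least 1 library and a ratio above 2 either way. List medians used genes with a mean RPKM above 1. The 6 genes and all lists were chosen with earlier results of these data known. Named genes are the 6 genes, the 2 most abundant and the called genes of each list, *Il18bp* and the cluster neighbours, and for each member the 3 genes nearest by Euclidean distance (RPKM above 5, at least 100 reads, at least 80% unique). *Il1a*, *Il1b*, *Il1f9*, *Il1f10*, *Il1rl2*, *Il1rapl1*, *Il1rapl2*, *Irak3*, *Nfkbiz*, *Casp4*, *Pycard*, *Aim2*, *Nlrp3* and *Nlrp1a* were named after their values were seen. Motifs were searched in RefSeq promoter windows and exons taken from GENCODE M21.

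Alternatives were TPM, TMM factors (edgeR 4.0.16) and median-of-ratios size factors (DESeq2 1.42.0) on the counts, unique exon reads, pseudocounts, other thresholds and, added after the data were seen, junction reads (also for ratios within a library). The filter and the intervals were tested on simulated counts with Poisson error only and planted changes well past the filter. These counts held no spread between mice and no PCR copies, so they check the code alone. R (4.3.3), Python (3.11.15), scipy (1.17.1), numpy (2.4.6), pandas (2.3.3) and matplotlib (3.10.9) were used.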

Additional observations from a re-analysis of the deposited data

How the results depend on the processing

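The log2 ratios of the 6 genes in the 3 comparisons, 18 in all, kept their direction with TPM, TMM factors, median-of-ratios size factors, unique exon reads and a pseudocount of 1 or 0.1. With junction reads, an alternative added after the data were seen, 3 of 18 turned, to -0.65 for *Il1r1* in αA against N, 0.50 for *Il1rap* in PαA against αA and 0.85 for *Il1rn* in PαA against N, each with an interval that includes 0 and few reads. The number of the 6 genes that passed between αA and N was 1 and became 2 with TPM (with *Il1r2*), 0 with a pseudocount of 1, 4 at 1.5-fold and 3 with junction reads. Between PαA and N it was 1 and became 2 with at least 20 exon reads, with an RPKM above 1 and at 1.5-fold. Between PαA and αA it stayed between 2 and 4. Among all genes, the counts of 298 (αA against N), 325 (PαA against αA) and 725 (PαA against N) became 558, 632 and 1539 with TPM, 1854, 1743 and 2648 with at least 20 exon reads, 978, 1016 and 1715 with an RPKM above 1 and 988, 1033 and 1966 at 1.5-fold. With a pseudocount of 1 the first pair became 194 and 215, and with junction reads 562 and 691. The cause of these changes beyond the altered thresholds was not tested. No paired analysis was possible because each genotype has 1 library. Depth limits *Il1r1* and *Il1rn* most, with under 50 junction reads per library.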

Other observations

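The inflammasome, which matures interleukin-1β and interleukin-18, was represented by 10 genes, 6 of them with a mean RPKM above 1 and with a median log2 ratio of -0.61 in αA against N, 0.13 in PαA against αA and -0.48 in PαA against N (with TMM factors -0.45, 0.20 and -0.26, with TPM -0.65, -0.04 and -0.68). Of the 10, 6 had the level for the filter, and 0 passed in any of these comparisons. Among expressed genes 4.25%, 4.63% and 10.3% passed. *Casp1*, the protease that cleaves both cytokines, had 3245 (N), 1521 (αA) and 1625 (PαA) exon reads, an RPKM of 72.9, 37.3 and 42.6, and *Casp4* had 18.4, 9.64 and 9.40. Both were lower in αA and PαA than in N, with log2 ratios of αA to N of -0.97 (-1.06 to -0.88) and -0.94 (-1.07 to -0.80). *Nek7*, a partner of NLRP3, had an RPKM of 52.8, 35.2 and 37.0. The adaptor *Pycard* stood apart with 23.2, 23.1 and 34.7 and was highest in PαA, as *Il18* and *Il18r1* were. The summed RPKM of the monocyte and macrophage markers was 262, 230 and 277, and the single markers followed different courses. *Lyz2* (214, 134 and 184), the largest part of the sum, and *Cd14* (2.33, 1.31 and 0.799) were highest in N. *C1qa* (35.8, 75.8 and 78.4), *Csf1r*, *Mrc1*, *Adgre1* and *Fcgr1* were higher in αA than in N. The part of such cells in the levels of *Il18* and of the inflammasome genes was not tested.

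The sensors differed in level. *Aim2* had an RPKM of 10.3, 6.59 and 7.49, above 5 in each library. *Nlrp3* had 6 (N), 49 (αA) and 0 (PαA) reads, and *Nlrp1a* had 108, 70 and 9.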
